A study of Arabidopsis thaliana with 17 samples.

Results

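The 94 probe sets described here had transcript signals at least 2-fold lower in hsfa2 mutant seedlings than in wild type seedlings after a repeated heat treatment, while their wild type signal gained little from the earlier heat. HSFA2 is a heat shock transcription factor of Arabidopsis thaliana. They were selected from 22746 probe sets on whole-seedling Affymetrix arrays with these measured values. On the log2 scale, the hsfa2 mean after both heats had to lie at least 1 below the wild type mean, with the highest hsfa2 array below the lowest wild type array. The wild type mean after both heats had to be at least 5, to exceed the mean after a single heat by less than 0.6, and the wild type change with a single heat had to lie between -2 and 3. Of 97 probe sets that met these conditions, 3 (EXLA1, COR15A and SRC2) were set aside by name, and organelle-encoded genes were not considered.

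Heat shock factors are held inactive in unstressed plant cells, assemble into trimers on heating, and bind heat shock elements, inverted repeats of a short motif, in the promoters of chaperone genes. HSFA2 is itself strongly induced by heat through the HSFA1 factors, and is known for prolonging the heat response and for sustained expression of a subset of heat-induced genes in the days after a first heat, a form of stress memory. Transcripts that differ in an hsfa2 mutant can be direct targets or lie further downstream, and an expression array does not separate these.

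All plants were Col-0 seedlings collected at 7 d of age, kept at 22 °C under days of 16 h. The mutant was a single T-DNA line, SALK_008978, described by the submitters as an HSFA2 knockout. Naive seedlings had not been heated, primed seedlings had spent 1 h at 37 °C in a water bath at 4 d of age followed by 3 d of recovery, and triggered seedlings had that heat immediately before harvest. The remaining treatment, primed and triggered, combined both heats. There were 2 hsfa2 and 3 wild type arrays each for the naive, triggered, and primed and triggered conditions, and 2 primed arrays of wild type alone. The labels describe replicates as biological and do not say what each was grown or pooled from. No array of primed hsfa2 seedlings was analysed here. In whole seedlings, fewer cells of a type and less RNA per cell cannot be told apart.

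The array medians were 51.8 to 58.9 intensity units in seedlings heated just before collection and 60.1 to 64.2 in the others. The hybridisation control bioB was low, at 4.27 to 4.35 on the log2 scale, on 3 arrays (replicate 3 of naive wild type and the 2 primed arrays), against 6.81 to 8.21 on the rest. No probe set is annotated to HSFA2 in the annotation used, so the genotype was not checked on its own transcript. The probe set 266841_at, which the annotation does not list, is left out of the selection by its identifier. Its wild type response to a single heat was also above the limit of 3, so it would not have been selected. It had 3.69 and 3.71 in hsfa2 and 12.79, 12.22 and 12.38 in wild type after a single heat. After both heats it had 3.34 and 3.56 in hsfa2, against 12.31, 12.77 and 12.19 in wild type. The 2 genotypes were thus fully apart on it in heated seedlings, while it lay between 3.18 and 3.66 in unheated seedlings of either genotype.

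Of the 94 members, 43 are annotated to 1 gene, 6 to several genes and 45 are not listed in the annotation. The annotated genes lie on all 5 nuclear chromosomes, with 13 of the 42 located genes on chromosome 1 (31.0%, against 25.8% of all probe sets annotated to 1 gene) and 6 on chromosome 5 (14.3%, against 22.5%). Unlisted probe sets are given by identifier and no function is attached to them. Roles below are from the known gene families, and the grouping by role was made after the values were seen.

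After both heats the difference between hsfa2 and wild type, which selected the members and is given as a description, ran from -1.96 to -1.01 with a median of -1.15 log2 units, where the median of all probe sets was -0.01. The fit across all probe sets called 1.37% of them in this contrast, 0.796% as lower in hsfa2. The members nearest the limit were 254770_at (-1.03), AT2G23120 (-1.03), 252870_at (-1.02), AT1G14960 (-1.02) and AT4G38020 (-1.01). Just outside it, with every other condition met, were AT4G00670 (-1.0), AT5G16380, AT1G32920 and AT4G01390 (each -0.99) and AT4G29520 (-0.98). The values on either side of the limit differed by far less than the array-to-array spread, so the boundary of the set has no step in the data.

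**Figure D1:**
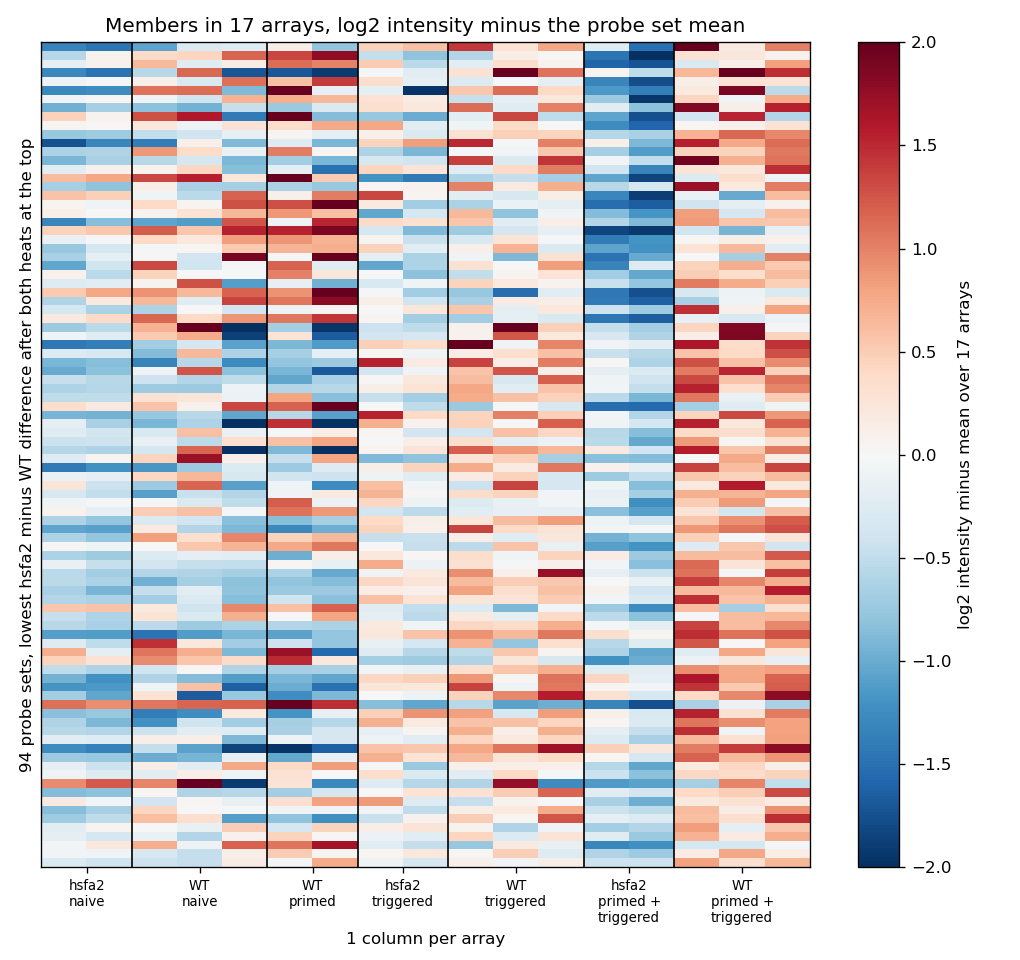
Log2 intensity of each of the 94 probe sets (1 per line, lowest hsfa2 minus wild type difference after both heats at the top) on each of 17 arrays (columns, grouped by condition with hsfa2 left of wild type), minus the mean of the probe set over all arrays. Blue is below and red above that mean. The 2 hsfa2 primed and triggered columns lie below the 3 wild type columns beside them in every line, as the selection requires, while the naive and triggered columns differ from line to line.

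The largest difference belonged to AT2G32190, which encodes a small cysteine-rich transmembrane protein of a stress-associated family. Its log2 intensity after both heats was 5.47 and 4.21 in hsfa2, against 7.80, 5.88 and 6.72 in wild type. After a single heat it was 6.16 and 6.29 in hsfa2, inside the wild type range of 7.12, 5.97 and 6.47, and in naive seedlings it was 4.39 and 4.26 in hsfa2, below all wild type values of 4.65, 5.41 and 5.45. The probe set 265670_s_at, annotated to AT2G32210 and AT2G32190 together, may read the same transcript and had 5.77 and 4.76 in hsfa2 after both heats, against 7.22, 6.41 and 6.77 in wild type. These 2 members are therefore not independent.

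AT1G73600, a member of the phosphoethanolamine methyltransferase family that makes the phosphocholine head group of membrane lipids, had 6.36 and 6.24 in hsfa2 after both heats, against 7.65, 8.07 and 8.78 in wild type. After a single heat its hsfa2 values of 8.46 and 7.42 lay on both sides of the wild type values of 7.74, 8.31 and 8.02. The naive values also overlapped, with 7.76 and 8.04 in hsfa2 and 8.61, 7.71 and 8.10 in wild type. The 2 genotypes thus overlapped in both conditions that did not select it.

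GSTU20, a tau class glutathione S-transferase, followed the same course at a higher signal. Its values after both heats were 8.77 and 8.31 in hsfa2 and 10.21, 10.38 and 10.36 in wild type. After a single heat they were 10.45 and 9.90 in hsfa2 and 9.82, 10.04 and 9.89 in wild type, a difference of 0.25 with a 95% interval of -0.48 to 0.99. The naive values were 9.98 and 10.07 in hsfa2 and 10.19, 9.78 and 11.19 in wild type. The singly heated and naive arrays of the 2 genotypes overlapped. BCAT4, the aminotransferase that opens the chain elongation of methionine for aliphatic glucosinolates, had 8.52 and 8.36 in hsfa2 after both heats, against 9.85, 10.22 and 9.35 in wild type. After a single heat it had 10.04 and 9.35 in hsfa2 and 9.67, 10.27 and 9.28 in wild type. Its naive hsfa2 values of 8.82 and 9.22 lay below the wild type values of 9.54, 9.61 and 10.10, a difference of -0.73 that was not called (SE 0.31, limma, adjusted p = 0.788).

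**Figure D2:**
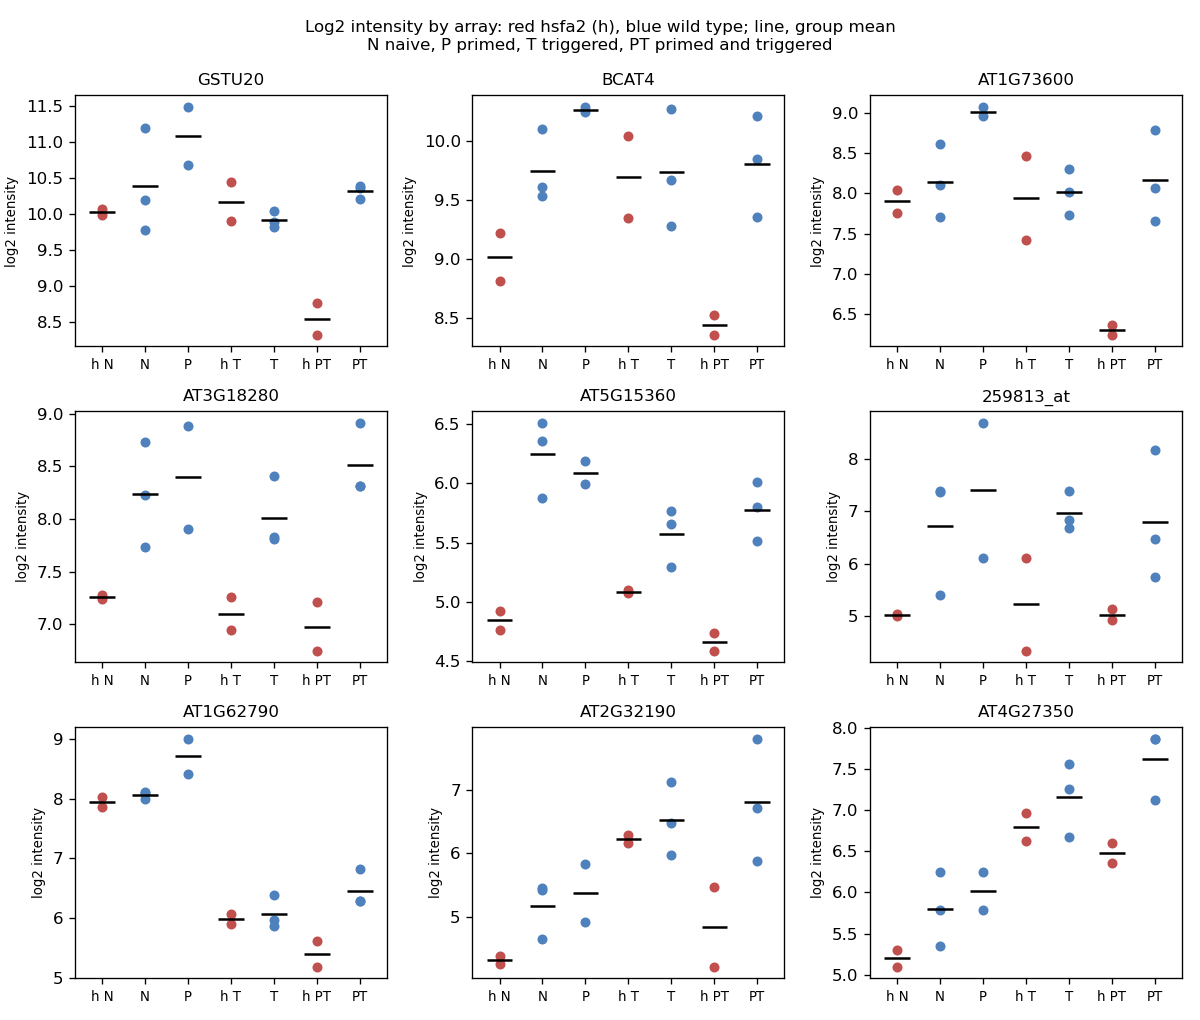
Log2 intensity (y axis, own scale in each panel) of 9 members by array, with hsfa2 in red and wild type in blue, and horizontal lines at the group means. GSTU20, BCAT4 and AT1G73600 in the top row lie low in hsfa2 after both heats and overlap wild type after a single heat. AT3G18280, AT5G15360 and 259813_at in the middle row have hsfa2 arrays below wild type in naive, triggered, and primed and triggered seedlings. The bottom row shows AT1G62790, AT2G32190 and AT4G27350, whose triggered and naive arrays did not overlap in either genotype. The heat response of AT2G32190 in hsfa2 was not called.

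Among the other members with the lowest differences, AT3G19680, to which no role is given here, had 7.47 and 6.87 in hsfa2 after both heats, against 9.54, 7.81 and 9.26 in wild type. AT4G30650, of a family of small membrane proteins responsive to low temperature and salt, had 6.51 and 5.81 in hsfa2, against 7.18, 9.09 and 6.99 in wild type. For AT4G30650 the mean difference was -1.59, and -0.92 without replicate 2 of the wild type, which was also the highest triggered array at 8.90, where the other 2 had 7.36 and 7.06. The remaining wild type arrays were still above both hsfa2 arrays.

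The probe sets without a single annotated gene included the other members of the lowest 10. After both heats, 262717_s_at had 4.09 and 3.56 in hsfa2 and 5.84, 5.79 and 5.64 in wild type, the tightest wild type group of these. 263823_s_at, annotated to AT2G40350 and DREB2C together, had 5.60 and 5.04 in hsfa2 and 6.22, 8.21 and 7.03 in wild type. 259813_at had 5.13 and 4.92 in hsfa2, against 6.47, 8.17 and 5.75 in wild type. In 263823_s_at and 259813_at the wild type arrays spread widely, with replicate 2 highest. 255284_at had 7.20 and 5.99 in hsfa2 and 8.37, 7.87 and 8.68 in wild type, and 266395_at had 6.51 and 6.18 in hsfa2, against 7.81, 7.86 and 8.05 in wild type. Further down, the differences were -1.55 for 266932_s_at, -1.51 for 249616_s_at and 254343_at, and -1.45 for 252291_s_at.

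The selection did not use the hsfa2 triggered, hsfa2 naive or wild type primed arrays. Comparing the genotypes in the other 2 conditions asks whether the low signal in hsfa2 was also present without the first heat. The wild type triggered arrays did enter the selection through its upper limit on the gain with priming and, with the naive arrays, through the limits on the heat response, so these comparisons are only partly independent of it.

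After a single heat, 71 of 94 members were lower in hsfa2 than in wild type on average, against 45.1% of all probe sets. The upper limit on the wild type gain with priming favours members with high wild type triggered arrays, and thus a lower hsfa2. The shares of all probe sets are without that limit, and its part in the members' counts was not tested. The members' median difference was -0.31 log2 units, where the median of all probe sets was 0.02. Both hsfa2 arrays lay below all 3 wild type arrays for 34 members (36.2%), where 10.5% of all probe sets did so, and above all of them for 1 member (254770_at, with 5.66 and 5.78 in hsfa2 and 5.59, 4.93 and 5.45 in wild type), where 14.7% did. None of the 94 members was called (limma, adjusted p under 0.05), where 0.00879% of all probe sets were called, and 10 members (10.6%) had an unadjusted p under 0.05, all of them lower in hsfa2, against 6.93% of all probe sets. A difference of 2-fold lower or more lay within the 95% interval for 48 of 94 members, so the test does not show that these were alike in the 2 genotypes.

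The smallest p after a single heat belonged to AT3G63400, a cyclophilin, an enzyme family that speeds proline isomerisation during protein folding. Its triggered values were 7.17 and 7.09 in hsfa2 and 7.57, 7.78 and 7.95 in wild type, a difference of -0.64 with an SE of 0.16 (limma, adjusted p = 0.434). After both heats it had 6.99 and 7.00 in hsfa2, against 8.17, 8.0 and 8.06 in wild type. The arrays of the 2 genotypes were apart in both heated conditions, and the naive arrays of hsfa2, at 6.73 and 6.62, overlapped those of wild type at 6.83, 7.26 and 6.64. The next were 266932_s_at (-0.51, SE 0.16, limma, adjusted p = 0.544) and AT5G35940, a jacalin lectin family gene, at -1.17 (SE 0.39, limma, adjusted p = 0.561). AT5G35940 had 4.67 and 4.47 in hsfa2 triggered arrays, against 5.88, 5.73 and 5.61 in wild type, a low signal in hsfa2.

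In naive seedlings, 74 of 94 members were lower in hsfa2 on average, against 47.0% of all probe sets. The members' median difference was -0.26, where the median of all probe sets was 0.01. Both hsfa2 arrays lay below all wild type arrays for 20 members (21.3%), against 10.1% of all probe sets, and above all of them for 1 member (1.06%), against 12.4% of all. None of the 94 members was called (limma), where 0.0% of all probe sets were called, and 8 members (8.51%) had an unadjusted p under 0.05, all lower in hsfa2, against 5.79% of all probe sets. The interval reached 2-fold lower or more for 53 members. The genotype difference that defines this set is the one after both heats, which selected it. With no member called and many wide intervals, the tests in naive and singly heated seedlings do not show which members also differed there.

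AT5G15360, to which no role is given here, had the smallest p in naive seedlings. It had 4.92 and 4.76 in hsfa2 and 6.36, 5.88 and 6.51 in wild type, a difference of -1.40 (SE 0.20, limma, adjusted p = 0.0766). The groups were also apart after a single heat, with 5.07 and 5.10 in hsfa2, against 5.66, 5.30 and 5.77 in wild type, and after both heats, with 4.59 and 4.74 in hsfa2, against 6.01, 5.51 and 5.80 in wild type. Its hsfa2 arrays were thus below the wild type arrays of the same condition in all 3 conditions. Without wild type naive replicate 2 the naive difference was -1.59 and was called.

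**Figure D3:**
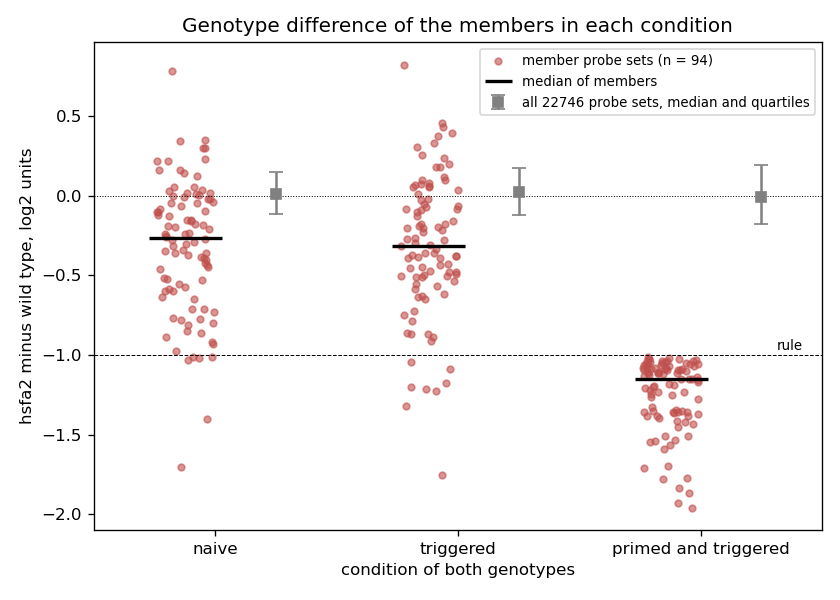
Difference between hsfa2 and wild type means (y axis, log2 units) of the 94 members in each condition (x axis), as points with a black line at their median, beside the median and quartiles of all 22746 probe sets (grey). The members' medians are -0.26 in naive and -0.31 in triggered seedlings, and the points after both heats lie below the dashed line at -1 because that line selected them.

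The members did not share a single course across conditions. The hsfa2 arrays lay below wild type in triggered and naive seedlings alike for 10 members, where 2.55% of all probe sets did so. They lay below in neither for 50, where 81.9% of all probe sets were in neither. These shares of all probe sets are also without the selection limits. A difference of 0.5 or more below wild type in both was found for 13 members, 6 of them not annotated to 1 gene, among them 259813_at and 263823_s_at, and the annotated AT5G11070, AT5G65300, AT5G35940, AT3G59350, AT4G32020, AT3G18280 and AT3G04640. At the other end, 19 members were less than 0.25 below wild type, or above it, after a single heat and at least 1 lower in hsfa2 after both heats than in hsfa2 after a single heat. These included GSTU20, BCAT4, AT1G73600 and the legume lectin family gene AT3G16530, with 15 that are not annotated to 1 gene. This pattern uses the hsfa2 arrays that selected the members, and the selection limits fix part of the drop, so it carries no test. Of all 22746 probe sets, 640 were 0.5 or more below wild type after a single heat and 689 in naive seedlings. The shares of all probe sets that meet either combined pattern were not counted.

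AT3G18280, a lipid transfer protein family gene, illustrates the first course. It had 7.24 and 7.27 in hsfa2 naive seedlings, against 8.73, 8.23 and 7.74 in wild type. After a single heat it had 7.25 and 6.95 in hsfa2, against 7.83, 7.81 and 8.41 in wild type, and after both heats 7.21 and 6.75 in hsfa2, against 8.31, 8.31 and 8.92 in wild type. The genotypes were apart in each condition, by -0.98 in naive (SE 0.33, limma, adjusted p = 0.615) and -0.91 in triggered seedlings (SE 0.33, limma, adjusted p = 0.62). 259813_at, with 5.0 and 5.04 in hsfa2 naive seedlings, against 7.37, 7.40 and 5.39 in wild type, had the largest mean differences of the members in both other conditions, -1.70 and -1.75, with SEs of 0.84 each. Neither was called, with a limma adjusted p of 0.873 in naive and 0.746 in triggered seedlings.

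Among the members above wild type after a single heat, 252618_at stood furthest out, with 9.35 and 8.07 in hsfa2 triggered seedlings, against 7.82, 7.70 and 8.15 in wild type on overlapping arrays and a difference of 0.82 (SE 0.54, limma, adjusted p = 0.811). After both heats it had 6.71 and 6.14 in hsfa2, against 7.88, 7.02 and 8.64 in wild type.

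Set against hsfa2 seedlings heated once, hsfa2 seedlings given both heats had a lower mean for 90 of 94 members, against 54.8% of all probe sets. The members' median was -0.50, and the arrays were lower without overlap for 69 (73.4%), against 26.1% of all probe sets. In wild type the same step gave a higher mean for 84 of 94 members, and for 11102 of all 22746 probe sets. The members' median was 0.34, below the limit of 0.6 that selected them. Both directions held for 80 members. All these values use the arrays that selected the members, so they describe the set and carry no test.

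The heat response of hsfa2 itself, triggered against naive, involves no array that entered the selection. The selection limits of -2 and 3 on the wild type response nevertheless leave out the most strongly heat-lowered and heat-induced transcripts. The wild type mean after both heats also had to be at least 5. Wild type and hsfa2 changes with heat correlated at 0.917 over all probe sets. These limits therefore fix part of the counts below, and the shares of all probe sets are without them. Here 17 of 94 members were called, 15 higher and 2 lower after heat, where 8.39% of all probe sets were called (3.5% higher and 4.88% lower). The median change of the members was 0.26, where that of all probe sets was 0.02. The triggered arrays lay above both naive arrays for 50 members (53.2%, against 32.6% of all) and below them for 16 (17%, against 32.8% of all). With each array centred on its own median, 18 members were called higher and 2 lower, while the calls over all probe sets changed to 1152 higher and 698 lower, against 797 and 1111 uncentred, and the median of all probe sets moved to 0.16. The fit's spread is pooled over all 17 arrays, and a fit of the 4 compared arrays alone called 36 members higher and 9 lower. At an unadjusted p under 0.05 there were 31 members (33%), against 21% of all probe sets.

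The largest called increase was that of 265670_s_at, with 6.10 and 6.49 in hsfa2 triggered seedlings and 3.91 and 4.35 in hsfa2 naive seedlings (2.17, SE 0.53, limma, adjusted p = 0.0235). 252131_at had 5.96 and 4.82 in triggered and 3.48 and 3.48 in naive hsfa2 seedlings (1.91, SE 0.36, limma, adjusted p = 0.00503). 265930_at had 7.84 and 7.81 in triggered and 6.02 and 5.92 in naive hsfa2 seedlings (1.86, SE 0.38, limma, adjusted p = 0.00825). In each of these the triggered arrays were above the naive arrays without overlap, and the 2 triggered arrays of 252131_at were the least alike.

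AT5G65300 had 6.43 and 6.32 in triggered and 4.52 and 4.57 in naive hsfa2 seedlings (1.82, SE 0.52, limma, adjusted p = 0.0466). 253485_at had 7.90 and 6.53 in triggered and 5.44 and 5.51 in naive hsfa2 seedlings (1.74, SE 0.45, limma, adjusted p = 0.0315). AT4G27350 had 6.63 and 6.97 in triggered and 5.09 and 5.30 in naive hsfa2 seedlings (1.60, SE 0.34, limma, adjusted p = 0.0102). The groups did not overlap in any of these, and 253485_at had the widest triggered pair. AT1G49790 had 5.18 and 5.25 in triggered and 3.83 and 3.57 in naive hsfa2 seedlings (1.51, SE 0.33, limma, adjusted p = 0.0117), and 254353_s_at had 8.75 and 9.12 in triggered and 7.45 and 7.43 in naive hsfa2 seedlings (1.5, SE 0.21, limma, adjusted p = 0.00048). The remaining called increases ran from 0.63 to 1.34 and belonged to 266932_s_at, 254493_at, AT1G62010, AT1G20220, AT2G41730, AT2G30320 and AT4G27654.

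Both called decreases were close to 2 log2 units. AT1G62790, a lipid transfer protein family gene, had 6.07 and 5.89 in triggered and 8.03 and 7.86 in naive hsfa2 seedlings (-1.96, SE 0.24, limma, adjusted p = 0.000157), and in wild type 6.38, 5.86 and 5.96 in triggered and 7.99, 8.09 and 8.12 in naive seedlings. 252291_s_at had 7.67 and 7.45 in triggered and 9.49 and 9.63 in naive hsfa2 seedlings (-2.0, SE 0.50, limma, adjusted p = 0.0261). With any 1 of the 4 hsfa2 arrays left out, most of the 17 called members were no longer called, and calls over all probe sets also fell. Only AT1G62790 and 254353_s_at were called in all 4 fits. Over all alternatives the change of 254353_s_at lay between 1.32 and 1.69, and that of 253485_at between 1.05 and 2.43.

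Across the 94 members the change with a single heat in hsfa2 had a correlation of 0.878 with that in wild type, against 0.917 over all probe sets. The 2 changes had the same sign in 79 members, and in 18186 of all 22746 probe sets. The points are probe sets on the same arrays, and the wild type change was bounded by the selection, so this is a description. In wild type, 27 members were at least 2-fold higher and 6 at least 2-fold lower after a single heat, with a median of 0.38, where 2.94% of all probe sets were that much higher and 4.34% that much lower. The limits of the selection on this change fix part of these counts.

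**Figure D4:**
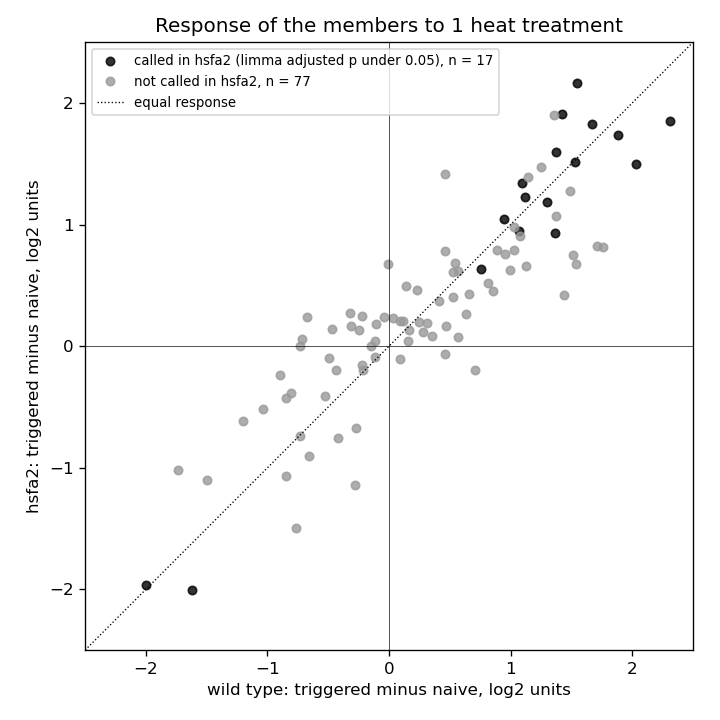
Change with a single heat (triggered minus naive, log2 units) of the 94 members in wild type (x axis) and hsfa2 (y axis), with the 17 members called in hsfa2 in black and the other 77 in grey. The dotted line marks an equal change, and points lie along it in both directions, with the 2 called decreases near -2.

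By role, the group linked to sulfur and glucosinolate metabolism held GSTU20 and BCAT4, whose median difference between hsfa2 and wild type was -1.57 after both heats and 0.10 after a single heat. The 4 lipid-related members were AT1G73600, AT3G18280, AT1G62790 and AT5G23830, a gene with a lipid recognition domain. Their medians were -1.31 after both heats and -0.28 after a single heat. With heat in hsfa2, 2 of 94 members and 4.88% of all probe sets were called lower, and 1 of the 4 in this group, AT1G62790, was. AT5G23830 had 5.65 and 5.86 in hsfa2 after both heats, against 6.74, 7.08 and 6.69 in wild type. Within this group AT1G73600 and AT3G18280 took different courses, since AT3G18280 was low in hsfa2 in all 3 conditions.

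The 5 members that act at the cell wall or outside the cell were EXLA2, an expansin-like protein of the family that loosens walls, RALFL22 and AT4G14020, which encode small secreted peptides of the rapid alkalinization factor family, and the lectins AT3G16530 and AT5G35940. Their medians were -1.17 after both heats and 0.06 after a single heat, and none of the 5 was called with heat in hsfa2 by limma. EXLA2 (1.48, SE 0.55, limma, adjusted p = 0.136) and AT3G16530 (-1.02, SE 0.42, limma, adjusted p = 0.174) were the 2 with an unadjusted p under 0.05. EXLA2 had 6.48 and 6.08 in hsfa2 after both heats, against 7.91, 6.68 and 7.42 in wild type, and with a single heat it had 6.85 and 7.27 in hsfa2, inside or just above the wild type values of 7.21, 6.06 and 7.22. RALFL22 had 8.13 and 7.65 in hsfa2 after both heats, against 9.52, 8.69 and 8.97 in wild type. AT3G16530 was lower with heat in wild type, with 6.45, 5.68 and 6.99 in triggered and 8.10, 7.84 and 8.38 in naive seedlings, while its triggered hsfa2 values of 7.16 and 6.51 overlapped those of triggered wild type.

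The 4 signalling members were ATC, a homolog of the CENTRORADIALIS and TFL1 regulators of flowering, the protein kinase AT3G59350, the U-box ubiquitin ligase AT1G23030 and AT5G22690, of the TIR-NBS-LRR class of immune receptors. Their medians were -1.12 after both heats and -0.20 after a single heat. ATC had 6.28 and 5.51 in hsfa2 after both heats, against 6.57, 7.94 and 6.58 in wild type, a difference of -1.14 that was -0.68 without wild type replicate 2. AT3G59350 had 7.60 and 7.50 in hsfa2 after both heats, against 8.81, 9.31 and 8.23 in wild type, and its hsfa2 arrays were also below those of wild type after a single heat, at 7.39 and 7.71 against 8.36, 9.04 and 7.91.

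The 5 members from stress protein families were AT2G32190, AT4G30650, AT1G11960, of the family early responsive to dehydration, and AT2G23120 and AT1G17620, of late embryogenesis abundant families. Their medians were -1.40 after both heats and -0.38 after a single heat. AT2G23120 was strongly expressed in every group and had 10.51 and 10.01 in hsfa2 after both heats, against 11.44, 10.92 and 11.48 in wild type. AT1G17620 had 6.72 and 6.41 in hsfa2, against 8.43, 7.26 and 8.21 in wild type.

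The 6 members with roles in RNA, organelles or folding were AT3G63400, AT1G20220, an Alba family nucleic acid binding protein, AT1G62010, of the mitochondrial transcription termination factor family, the pseudouridine synthase AT2G30320, the RNA methyltransferase family gene AT4G38020 and the AAA-type ATPase AT3G03060. Their medians were -1.09 after both heats and -0.24 after a single heat. With heat in hsfa2, 15 of 94 members and 3.5% of all probe sets were called higher, and 3 of the 6 in this group were. These were AT2G30320 (1.23, SE 0.32, limma, adjusted p = 0.0292), AT1G20220 (0.95, SE 0.25, limma, adjusted p = 0.0315) and AT1G62010 (0.93, SE 0.18, limma, adjusted p = 0.00522). AT1G20220 had 8.90 and 8.64 in hsfa2 after both heats, against 9.53, 9.91 and 10.21 in wild type, and AT1G62010 had 5.01 and 4.87, against 6.40, 5.98 and 5.74. These 6 lay near the upper end of the members' differences, between -1.11 and -1.01.

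The other 17 annotated members, to which no role is given here, were AT3G19680, AT4G33985, AT5G65300, AT1G50040, AT5G11070, AT4G27350, AT4G27654, AT5G15360, AT2G41730, AT1G15010, AT1G49790, AT3G04640, AT3G01430, AT1G53645, AT4G34950, AT4G32020 and AT1G14960. Their differences after both heats ran from -1.70 for AT3G19680 to -1.02 for AT1G14960. AT4G32020 had 9.47 and 9.39 in hsfa2 after both heats, against 10.26, 10.0 and 11.14 in wild type, without overlap. AT4G34950 had the widest naive wild type range of the members, with 7.75, 9.89 and 4.86.

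Genes reported in earlier work as HSFA2 targets were examined beside the members. Of 26 on that list 8 were measured by a probe set with 1 gene, and 0 of them were members. None of the 8 could have been selected, whatever its hsfa2 values. Their wild type change with a single heat ran from 5.16 for HSA32 to 9.88 for AT1G53540, above the upper limit of the selection. The count of members therefore says nothing on overlap with HSFA2 targets. All 8 were called higher with heat in hsfa2, with a median of 8.42 log2 units, and the change was 8.99 for ATHSP22.0 (SE 0.57, limma, adjusted p = 2.41e-07), a small heat shock protein, and 5.54 for HSA32 (SE 0.54, limma, adjusted p = 1.59e-05), a protein needed for long-term acquired thermotolerance. The other 6 were Hop3, Fes1A, AT5G51440, AT5G48570, AT1G53540 and AT1G52560. None of the 8 was called between hsfa2 and wild type after a single heat (median -0.02) or after both heats (median -0.07), and their summed signal after both heats was 15.89 to 15.93 in hsfa2 and 15.90 to 16.10 in wild type. The 21 heat shock factors on a second list had no probe set with 1 gene.

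Among the other lists, the antioxidant list had 1 of 10 entries measured, and the endoplasmic reticulum folding list 4 of 14. The green tissue list had 2 of 7, the root and root hair list 3 of 5, the guard cell list 1 of 3 and the seed storage list 0 of 5. None of these measured genes was called between hsfa2 and wild type after both heats, where their medians were 0.33, -0.16, 0.30, -0.02 and 0.17 in the order given. The summed signal of the green tissue list after both heats was 14.16 to 14.27 in hsfa2 and 13.89 to 14.05 in wild type, so it did not overlap, and that of the root list was 11.33 to 11.35 in hsfa2, inside the range of 10.82 to 11.70 in wild type. The guard cell gene FMA had 4.54 to 4.85 in hsfa2 and 4.30 to 4.68 in wild type. The measured markers were RCA and PRK for green tissue and PYK10, EXPA7 and EXPA18 for root, both lists with a high summed signal on every array, as whole seedlings hold both organs. The part of these marker levels in the members' signals was not tested.

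Priming alone, in wild type, was compared with naive seedlings as a further measure outside the hsfa2 arrays. The members had a median of 0.16 higher in primed seedlings, and 0.04 without primed replicate 1. The primed arrays lay above all naive arrays for 13 (13.8%, against 9.54% of all probe sets) and below them for 6 (6.38%, against 10.3% of all). None of the 94 was called (limma), where 0.0044% of all probe sets were called, and 13 had an unadjusted p under 0.05 (13.8%, against 9.06% of all), 11 higher and 2 lower. The smallest p belonged to 266326_at, with 8.83 and 9.64 in primed and 7.93, 7.59 and 8.80 in naive seedlings (1.12, SE 0.35, limma, adjusted p = 0.408). RALFL22 had 9.25 and 9.46 in primed and 8.51, 8.14 and 9.0 in naive seedlings (0.80, SE 0.27, limma, adjusted p = 0.426). Both primed arrays and naive replicate 3 are the arrays of low bioB signal, and the part of that signal in the values was not tested beyond a fit with it as a block, which called 0 members. Without naive replicate 3, 2 members were called higher and 1 lower.

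The members' wild type arrays were further apart than those of all probe sets at the median. The median range over the 3 wild type arrays was 0.805 for members and 0.397 for all probe sets after both heats, and 0.731 and 0.36 after a single heat. A range over 1 log2 unit was found in wild type for 34.0% of members after both heats, 31.9% after a single heat and 38.3% in naive seedlings, against 8.92%, 6.51% and 11.9% of all probe sets. In hsfa2 the range of the 2 arrays exceeded 1 for 5 members (5.32%) after both heats, 6 (6.38%) after a single heat and 0 in naive seedlings, against 0.303%, 0.576% and 0.119% of all probe sets. Over all probe sets, pairs of hsfa2 arrays also differed less (median absolute difference 0.11 to 0.16) than pairs of wild type arrays (0.19 to 0.28), so the p-values of comparisons with hsfa2 rest on a spread pooled over unequal groups.

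Same-numbered wild type arrays moved together in the heated conditions. The deviations from the group means in primed and triggered and in triggered arrays correlated at 0.714, 0.811 and 0.636 over members for replicates 1, 2 and 3, against 0.563, 0.642 and 0.656 over all probe sets, as a description over features of the same arrays. For 60 of 94 members (63.8%) the same replicate number was highest in both conditions, against 51.7% of all probe sets. Members with replicate 2 highest included 259813_at, 263823_s_at, ATC and AT4G30650, whose wild type values are given above.

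**Figure D5:**
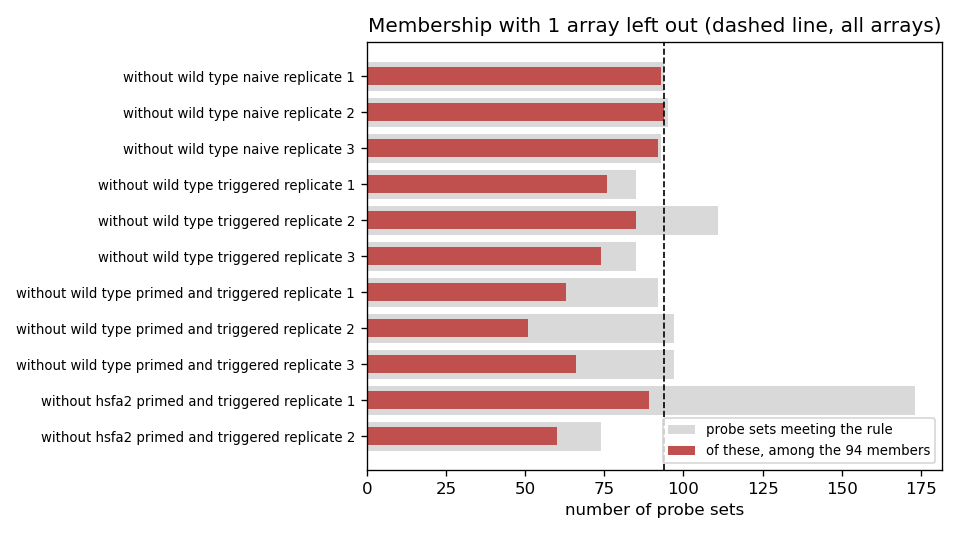
Number of probe sets that meet the selection when 1 array is left out (grey bars), and how many of these are among the 94 members (red bars), with the dashed line at 94. Between 51 and 94 members are kept, with the fewest kept without wild type primed and triggered replicate 2 and the most probe sets selected, 173, without hsfa2 primed and triggered replicate 1.

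Membership therefore varied with single arrays. Without wild type primed and triggered replicate 2, 97 probe sets met the conditions and 51 of them were members, and without replicate 1 or 3 of that group 63 and 66 members were kept. Without hsfa2 primed and triggered replicate 1 the set grew to 173 with 89 members, and without replicate 2 it shrank to 74 with 60 members. Centring each array on its median gave 117 probe sets that included all 94 members.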

How the data were processed

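The authors deposited a table of intensity values for 17 arrays on a linear scale, made with RMA, per the submitters' processing notes (its version is not given in the sources used here). Because RMA works in log2, the deposited intensity values were returned to that scale without a pseudocount. Removing 64 control probe sets left 22746. Names came from the platform annotation, updated with RefSeq (TAIR10.1), which matched 42 of 43 annotated members. No coordinates are printed, because the values name no genome build.

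All 17 arrays in 7 groups entered a single model in limma 3.58.1, R 4.3.3 (10 residual degrees of freedom, prior 2.92), without covariates. Changes are on the log2 scale with the SE of the fit, and calls are at a Benjamini-Hochberg adjusted p under 0.05 over all probe sets. The fit was tested on simulated data with independent noise and the same spread in every group. That test does not cover the unequal spreads of the genotypes or the shared deviations of same-numbered arrays. P-values set a difference against the spread between arrays, pooled over the 7 groups, and the number of arrays limits the precision.

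The members and gene lists were chosen with earlier results of these data known. Named were every member annotated to 1 gene, the 10 other members with the lowest difference, the 5 probe sets on each side of the limit, and the measured list genes, with array values for the 10 lowest members and for called members up to 10. Other genes with array values were chosen after their values were seen. Promoter and protein sequences were not used here.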

Additional observations from a re-analysis of the deposited data

Results flagged for a closer look

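AT5G15360 was higher on both hsfa2 triggered arrays (5.07 and 5.10) than on both hsfa2 naive arrays (4.92 and 4.76), a change of 0.24 log2 units, while in wild type all triggered arrays (5.66, 5.30 and 5.77) were below all naive arrays (6.36, 5.88 and 6.51), a change of -0.67. The difference between the genotypes in this response was not tested. Such opposite, non-overlapping changes were found for 1 of 94 members and for 69 of 22746 probe sets (0.303%).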

How the results depend on the processing

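Few arrays limit every comparison, and signals near the low end of the range carry little information on size. For the heat response of hsfa2, 15 members were called higher and 2 lower. The counts were 36 and 9 with the compared arrays alone, 30 and 7 with array weights, and 16 and 3 with the replicate number as a block, a fit that changed no other count of called members. Over all probe sets that comparison called 1908, against 5084 with the compared arrays alone and 5771 with array weights. Leaving out 1 hsfa2 array gave 2 to 6 higher and 1 lower, with the lone array assumed to vary like the other groups. Without the arrays of both primed and triggered groups, an alternative chosen after seeing the data, 13 were called higher and 1 lower, and 1629 of all probe sets were called. The values of AT4G30650 and ATC without wild type replicate 2 were also added after seeing the data. In naive seedlings, array weights called 1 member lower in hsfa2, and leaving out 1 array called 0 to 1. For priming alone, leaving out 1 array called 0 to 2 members higher and 0 to 1 lower, and 542 probe sets overall without naive replicate 3. Leaving out 1 array gave 74 to 173 probe sets that met the selection. The medians of the members' changes kept their sign in all 4 tested comparisons under every alternative run, and that of priming alone moved to 0.04 without primed replicate 1. Same-numbered arrays of the groups in the 4 tested comparisons did not deviate together in all pairs (correlations from -0.435 to 0.297 for replicates 1 and 2). The triggered and naive arrays of wild type had -0.162, 0.567 and 0.184 for replicates 1, 2 and 3. The triggered and primed and triggered arrays of wild type did deviate together (0.563 to 0.656), but their comparison selected the members and was not tested. Whether same-numbered arrays share an origin is not stated by the labels and was not tested. Promoter motifs were planned and not run.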
